A study of Rattus norvegicus with 4 samples.

Results

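Marcks, Marcksl1, Gap43 and Basp1 encode membrane-attached proteins of the growth cone and the cell cortex. The genes were picked by their symbols as a protein group, with the values of control and Sox10-deficient cells in view, so that these values are given as a description and without a test. They make up 4 of the 17327 gene symbols in the deposited counts. The libraries came from OLN93, a rat line of oligodendroglial origin that became immortal in culture. There were 2 control libraries of Sox10-positive cells and 2 libraries of Sox10-deficient cells, clones A and B, in which the Sox10 gene had been inactivated by CRISPR/Cas9 with a different guide RNA in each. Each Sox10-deficient library stands for a single clone of edited cells, and the study describes the controls as 2 control clones, so that p-values measure the spread between these libraries only.

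Marcks and Marcksl1 carry a short basic stretch, the effector domain, that binds the acidic membrane lipid PIP2, calmodulin and actin filaments. Phosphorylation of this stretch by protein kinase C, or binding of calcium-loaded calmodulin, releases it from the membrane. Both proteins and Basp1 (also called CAP-23 or NAP-22) are anchored by a myristoyl group, whereas Gap43 is anchored by palmitoylation near its start. Gap43 and Basp1 are abundant in growing axons, Marcks is found in many cell types, and all 4 proteins are described as regulators of the supply of PIP2 at the membrane and thereby of the actin cortex.

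The 250 bases before the start of Marcks and of Basp1 are shown first, because these are the members that had counts and because the factor removed from the cells, Sox10, binds DNA. The sequences are those of RefSeq on assembly GRCr8, a later build than the rn5 used for the counts. They lie at chr20:42245883-42246132 for Marcks and at chr2:77594298-77594547 for Basp1, both on the minus strand and each written 5′ to 3′ along its gene. Capitals mark the letters ACAATG or ACAAAG, common core forms of the site bound by Sox proteins, or their reverse complements CATTGT and CTTTGT.
Marcks: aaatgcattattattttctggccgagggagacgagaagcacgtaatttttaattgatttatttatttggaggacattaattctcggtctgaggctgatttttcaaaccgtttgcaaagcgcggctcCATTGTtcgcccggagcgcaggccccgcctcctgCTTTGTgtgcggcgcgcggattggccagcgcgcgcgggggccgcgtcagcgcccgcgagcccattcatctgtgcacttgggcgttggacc
Basp1: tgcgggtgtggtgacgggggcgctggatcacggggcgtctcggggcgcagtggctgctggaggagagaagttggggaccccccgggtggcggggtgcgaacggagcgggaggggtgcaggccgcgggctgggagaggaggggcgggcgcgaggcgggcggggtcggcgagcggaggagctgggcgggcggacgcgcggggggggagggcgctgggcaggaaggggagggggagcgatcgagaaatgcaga

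Both motifs occurred in the Marcks sequence, each on the opposite strand, with their first printed letters 124 and 90 bases before the start and without overlap between them. Neither was present in the Basp1 sequence or in the same window of Marcksl1. Among 33469 rat promoter windows of this length, 11.1% held ACAATG on either strand, 16.3% held ACAAAG, 25.3% held at least one of them and 2.09% held both. The window before Basp1 consisted of G and C to 76.8%, more than in 97.6% of all windows, and the window before Marcks to 55.6%, where the median of all windows was 51.2%. For Marcksl1 the value was 68.0%. A match is a string of letters only, and binding of Sox10 was not measured in these libraries. Of the members, 3 were matched to the promoter table, and Gap43 was not.

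Library totals in the deposited files ran from 60951 to 104017 counts, which is shallow for RNA-Seq. The study reports far more sequenced reads per library, and the reason for the low deposited totals is not given in the sources used here. Levels are given as normalized CPM, meaning counts scaled to a common library size by the TMM method of edgeR. A count of 3, taken as the floor of detection, stood for between 29.0 and 48.2 normalized CPM. Intervals are exact 95% Poisson intervals of the counts unless named otherwise, and they and the floor cover counting error only. Sox10 itself had 28 and 64 counts in controls 1 and 2. Clone A had 0 Sox10 counts, and clone B had 14. Clone B thus kept a Sox10 RNA level of 159 CPM (interval 86.8 to 266), whereas the interval of clone A ran from 0 to 42.7 CPM. These counts are of RNA and do not show whether the cells made Sox10 protein. Of the 4 members, 2 had counts in any library, and these 2 passed the filter on low counts that left 2438 genes for testing.

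Marcks, the founding member of the group and a major substrate of protein kinase C, was lower in both Sox10-deficient clones. It had 60 counts in control 1 and 55 in control 2, against 13 in clone A and 11 in clone B. In normalized CPM these were 964 (interval 735 to 1240) and 532 (401 to 693) in the controls and 150 (80.0 to 257) and 125 (62.3 to 223) in clones A and B. The groups did not overlap, and neither did any control interval with any clone interval. The mean level was 748 ± 305 CPM (SD, n = 2) in controls and 138 ± 18.1 CPM (SD, n = 2) in Sox10-deficient cells, so that the clones held 18.4% of the mean control level. The lower control still stood 3.54 times above the higher clone. The log2 fold change fitted by edgeR was -2.40 with a standard error of 0.39. Over the 2438 tested genes 40 had a lower log2 fold change than Marcks, while the median of all was -0.006 and the quartiles were -0.43 and 0.40.

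The size of the Marcks difference depended on which control was used. Control 1 lay 1.81 times above control 2 (exact 95% interval of the ratio from the counts 1.23 to 2.66), more than counting error allows. The clones, in contrast, were close to each other, with a ratio of clone B to clone A of 0.830 (0.337 to 2.01). The log2 fold change was -1.94 without control 1 and -2.80 without control 2. Leaving out clone A gave -2.54, and leaving out clone B -2.27. Clone A, with no Sox10 RNA counts, and clone B, which kept some, had close Marcks values, although the interval of their ratio is wide. A relation between Sox10 counts and the Marcks level was not tested.

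Basp1, a small myristoylated protein first described in brain and in growth cones, showed the opposite pattern and was higher in both clones. It had 6 and 16 counts in controls 1 and 2, 24 in clone A and 43 in clone B. This corresponded to 96.4 (interval 35.4 to 210) and 155 (88.5 to 252) CPM in the controls and to 278 (178 to 413) and 488 (353 to 657) CPM in the clones. The libraries of the groups did not overlap, but the interval of clone A overlapped those of both controls, while that of clone B overlapped neither. The mean in the clones was 3.05 times that in the controls, with 383 ± 149 against 126 ± 41.4 CPM (SD, n = 2 each). The lower clone stood 1.79 times above the higher control. The log2 fold change was 1.54 with a standard error of 0.45, and 59 tested genes had a higher one.

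The Basp1 difference rested on clone B more than on clone A. Clone B lay 1.76 times above clone A (exact 95% interval of the ratio 1.04 to 3.03), and the interval of the ratio of control 1 to control 2, 0.622 (0.199 to 1.67), includes equal levels. Without clone B the log2 fold change was 1.09 and without clone A it was 1.89. Without control 1 and without control 2 it was 1.30 and 1.97. The sign was the same in each case.

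**Figure D1:**
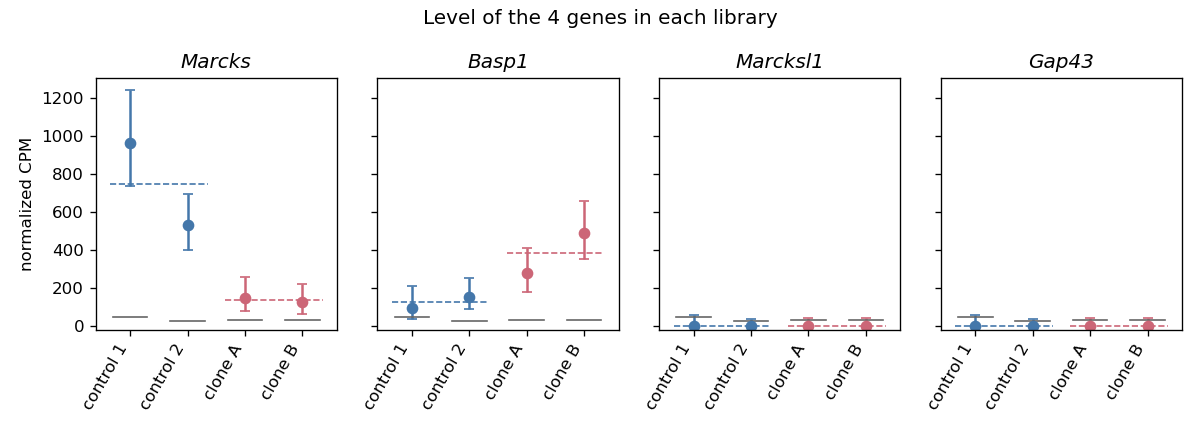
Normalized CPM of the 4 genes (vertical axis) in each of the 4 libraries (horizontal axis), with controls in blue and Sox10-deficient clones in red. Points are single libraries, bars exact 95% Poisson intervals, dashed lines group means and grey ticks the floor of 3 counts. Marcks lay between 125 and 150 CPM in the clones against 532 and 964 in the controls, Basp1 lay higher in both clones, and Marcksl1 and Gap43 were at 0 throughout. Heights are not comparable between genes, since CPM is not divided by transcript length.

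Both clones lay below both controls for 1 of the 4 members, Marcks, and above both controls for 1, Basp1. Over all tested genes, 21.5% had both clones below both controls and 21.6% had both above. Since the members were chosen with this contrast in view, nothing further is read from these shares. In bulk RNA, fewer cells with a transcript and less of it per cell cannot be told apart.

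The balance of Marcks and Basp1 can also be followed inside each library, where the scaling of libraries plays no part. Marcks supplied 60 of the 66 counts of both genes in control 1, or 90.9% (exact Clopper-Pearson 95% interval 81.3 to 96.6), and 55 of 71 in control 2, or 77.5% (66.0 to 86.5). In clone A it supplied 13 of 37 counts, or 35.1% (20.2 to 52.5), and in clone B 11 of 54, or 20.4% (10.6 to 33.5). These intervals cover counting error within a library only. Since one gene was lower and the other higher in the clones, the shift of the share follows from the levels above and is no further evidence. Marcks counts were 10.0 and 3.44 times those of Basp1 in controls 1 and 2. In clones A and B it was Basp1 that had more counts, by 1.85 and 3.91 times. These ratios compare counts that were not divided by transcript length, so that only their shift between libraries, and not their height, has a meaning for the amounts of RNA. The summed level of both genes was 1060 and 687 CPM in the controls against 428 and 612 CPM in clones A and B. Each clone lay below each control, but control 2 and clone B were close, and no interval was computed for these sums. Without division by transcript length, the sum also weighs the 2 genes unequally.

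**Figure D2:**
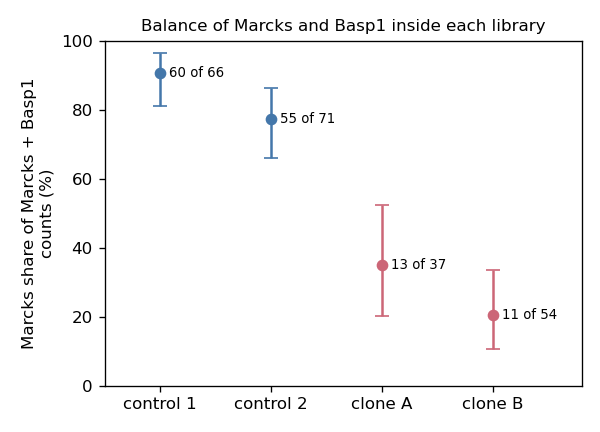
Share of Marcks in the counts of Marcks and Basp1 together (vertical axis, percent) in each library (horizontal axis), with controls in blue and clones in red. Points give the share, bars its exact 95% interval, and the labels the counts. The controls stand at 90.9% and 77.5% and the clones at 35.1% and 20.4%.

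Marcksl1, the smaller relative of Marcks with a similar effector domain, had 0 counts in all 4 libraries. At a count of 0 the intervals ran up to 59.2 and 35.7 CPM in controls 1 and 2 and to 42.7 and 41.8 CPM in clones A and B. In the authors' table of normalized mean counts over all 4 libraries, whose values are far larger, the symbol stands on 3 Ensembl entries, of which the highest has a mean of 136 and the other two are listed at 0. For 5353 genes whose mean there was 500 or more, deposited counts per library came to a median of 0.384% of that mean. At that share a mean of 136 would give 0.522 counts per library, so that 0 counts say little about Marcksl1 and no difference was detectable at this depth.

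Gap43, the palmitoylated calmodulin-binding protein of growing and regenerating axons, likewise had 0 counts in each library, with the same limits. In the authors' table its entry is listed at a mean of 0 as well. Gap43 was therefore not detected in OLN93 cells of either group, whereas Marcksl1, also at 0 counts, had a mean above 0 in that table. For Marcks the authors' mean is 8721, and its deposited mean of 34.75 counts per library is 0.398% of it, close to the median share of all genes. Basp1 has no entry under its symbol or its older name in that table, so its counts could not be set beside deeper ones.

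Marcks is among the candidate genes that the study drew in part from these same libraries. The study also required a nearby Sox10 binding site from published ChIP-Seq data of the CNS and preferential expression in oligodendrocyte precursors. The Marcks level here is no independent evidence for its place among these candidates. None of the 4 members overlaps another gene in RefSeq on GRCr8, but the strand setting of the counting is not given in the sources used here.

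The genes whose profile over the 4 libraries was most like that of Marcks were also lower in the clones. This direction follows from their choice by likeness to Marcks. Likeness was the Euclidean distance between log2 CPM values centred on each gene's mean, over 841 tested genes with a mean of at least 20 counts, and it describes 4 points that share their libraries. The closest were Ddah1, an enzyme that breaks down methylated arginines (distance 0.50), Ntrk2, the receptor for the neurotrophin BDNF (0.53), Gpm6b, a membrane glycoprotein of the proteolipid family (0.56), Sh3kbp1, an adaptor of receptor endocytosis (0.61), and Atrn, the membrane protein attractin (0.62). The median distance of all these genes from Marcks was 2.5. Ddah1 went from 719 ± 72.8 to 160 ± 18.4 CPM and Ntrk2 from 433 ± 160 to 103 ± 14.8 CPM (SD, n = 2 each). As for Marcks, the CPM level was higher in control 1 than in control 2 for Ddah1, Ntrk2, Gpm6b and Sh3kbp1, while the controls were nearly equal for Atrn (513 ± 0.609 CPM, SD, n = 2).

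The genes closest to Basp1 were Socs5, a suppressor of cytokine signalling (distance 0.43), Ccng1, which encodes cyclin G1 (0.44), Fbn1, the microfibril protein fibrillin (0.53), Ptpre, a protein tyrosine phosphatase (0.60), and Nr1d1, the circadian repressor Rev-erb alpha (0.60), with a median distance of 1.74 over all genes compared. All 5 had both clones above both controls, as did 21.6% of all tested genes. For the 5 this follows from their choice by likeness to Basp1. Socs5 went from 190 ± 18.8 to 474 ± 163 CPM and Ccng1 from 375 ± 99.1 to 892 ± 150 CPM (SD, n = 2 each). All 5 had, as Basp1 did, their highest level in clone B, which follows from the same choice.

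The remaining genes of the pathway were examined in 6 lists, none of which contains a member. Of 156 genes 153 were listed in the counts and 66 could be tested. Calls needed a difference of 2-fold or more and, in the quasi-likelihood test of edgeR, a Benjamini-Hochberg adjusted p over all tested genes no larger than 0.05. By this rule 2 of the 66 fell (3.03%) and 1 rose (1.52%), where 2.5% of all tested genes fell and 1.11% rose. With the unadjusted p, 5 fell (7.58%) and 2 rose (3.03%), against 6.97% and 4.63% of all tested genes. The shares were thus near those of all genes, and the median log2 fold change of the 66 was -0.09. DESeq2 called none of the 66 after adjustment.

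Among growth cone and neurite outgrowth proteins, 13 of 32 genes were tested. Of these 2 fell (15.4%, against 2.5% of all tested genes), and none rose (1.11% of all tested genes did). The median log2 fold change was -0.38, where that of all tested genes was -0.006, and 11 of the 13 had a value below 0. The lists were chosen with earlier results of these data known, so that nothing further is read from these shares. For Gpm6b, 54 and 47 counts in controls compared with 18 for clone A and 13 for clone B. Its level fell from 661 ± 292 to 178 ± 42.9 CPM (SD, n = 2 each). On the log2 scale this was -1.85 ± 0.40 (standard error), and edgeR gave an adjusted p of 0.012. Tubb2b, a beta-tubulin of young neural cells, was counted 21 and 29 times in controls and 8 times in each clone. It fell from 309 ± 40.0 to 91.6 ± 1.27 CPM (SD, n = 2 each). On the log2 scale this was -1.72 ± 0.46 (standard error), with an adjusted p of 0.0468 by edgeR. Tubb2b resembles its paralog Tubb2a so closely that reads may be assigned between them. Cdh2, which encodes N-cadherin, had 45 and 93 counts in controls against 38 and 33 in clones A and B. Its log2 fold change was -1.01, with an adjusted p of 0.0687 from the edgeR test. It was called with scaling by library totals alone (adjusted p from edgeR 0.0499). The log2 fold change of Cdh2 was -1.14 without control 1 and -0.83 without control 2. Like Marcks, Gpm6b and Tubb2b belong to the candidates that the study took in part from these libraries. The Gpm6b call was lost with DESeq2 (adjusted p = 0.0603), without control 1 (0.0565 from edgeR), without clone A (0.0526) or on omission of clone B (0.147). The Tubb2b call was lost without any 1 of the libraries (adjusted p from edgeR 0.0821 to 0.211), with DESeq2 (0.411), with DESeq2 size factors in edgeR (0.0516) and with no filter on low counts (0.0869).

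Of the kinases and phosphatases that act on the effector domain, protein kinases C included, 9 of 26 genes were tested and none was called by edgeR, 1 of them having an unadjusted p under 0.05. This was Mapk3, the kinase ERK1, with control counts of 23 and 26, clone counts of 15 and 12, and a log2 difference of -0.97 ± 0.43 (standard error; edgeR adjusted p = 0.299). Rock2, a kinase that acts on the cytoskeleton, and Ppp1cc, a catalytic subunit of protein phosphatase, had log2 fold changes of -0.63 and -0.76 with standard errors of 0.35 and 0.55. The log2 fold changes of this list ran from -0.97 to 0.33.

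Of 15 calmodulin genes and calmodulin-binding partners 6 were tested. None was called by edgeR, none had an unadjusted p under 0.05, and their log2 fold changes ran from -0.21 to 0.68. Calm3 had a log2 fold change of 0.68 with a standard error of 0.61, and Myo5a, a myosin with calmodulin light chains, one of 0.41 with a standard error of 0.41.

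For the enzymes that attach or remove lipid anchors, 4 of 15 genes were tested and none was called by edgeR, with 1 unadjusted p under 0.05. Zdhhc2, a palmitoyl transferase, was counted 11 and 15 times in controls and 2 and 5 times in clones, a log2 difference of -1.95 ± 0.77 (standard error; edgeR adjusted p = 0.217). Nmt1, the N-myristoyl transferase, had 14 and 27 counts against 10 and 15, with a log2 fold change of -0.77 and a standard error of 0.45. Zdhhc5, another palmitoyl transferase, had a log2 fold change of 0.76 and a standard error of 0.48. No common direction was seen among these 4 genes, of which 2 had a value below 0 and 2 above.

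Of the enzymes that make or cleave phosphoinositides, 12 of 34 were tested and 1 rose (8.33%, against 1.11% of all tested genes). This was Plcb2, a phospholipase C that hydrolyses PIP2, with 1 count in each control against 16 in clone A and 12 in clone B. From the pooled counts the ratio of clones to controls was 13.3 (exact 95% interval 3.35 to 115, counting error only), and the adjusted p from edgeR was 0.0486. The call was lost with DESeq2 (adjusted p = 0.243), with DESeq2 size factors in edgeR (0.0516) and without any 1 of the libraries (0.0546 to 0.561). Plce1 and Plcg1, further phospholipases C, had log2 fold changes of -1.30 and -0.77 with standard errors of 0.69 and 0.42. Of the 12 genes 8 lay below 0, with a median of -0.30, where that of all tested genes was -0.006.

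Among actin proteins regulated by phosphoinositides, 22 of 34 genes were tested and none was called by edgeR, 4 of them having an unadjusted p under 0.05. Their median log2 fold change was 0.16, where that of all tested genes was -0.006, and 14 of the 22 had a value above 0. Gsn, the filament-severing protein gelsolin, was counted 9 and 10 times in controls and 26 and 28 times in clones, a log2 difference of 1.40 ± 0.45 (standard error; edgeR adjusted p = 0.104). Actn1, the crosslinker alpha-actinin, had 17 and 38 counts against 46 and 56, a log2 fold change of 0.84 with a standard error of 0.32. Tmsb10, which encodes the actin-monomer binding thymosin beta, had 38 and 48 counts against 25 and 23, with -0.95 and a standard error of 0.34.

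**Figure D3:**
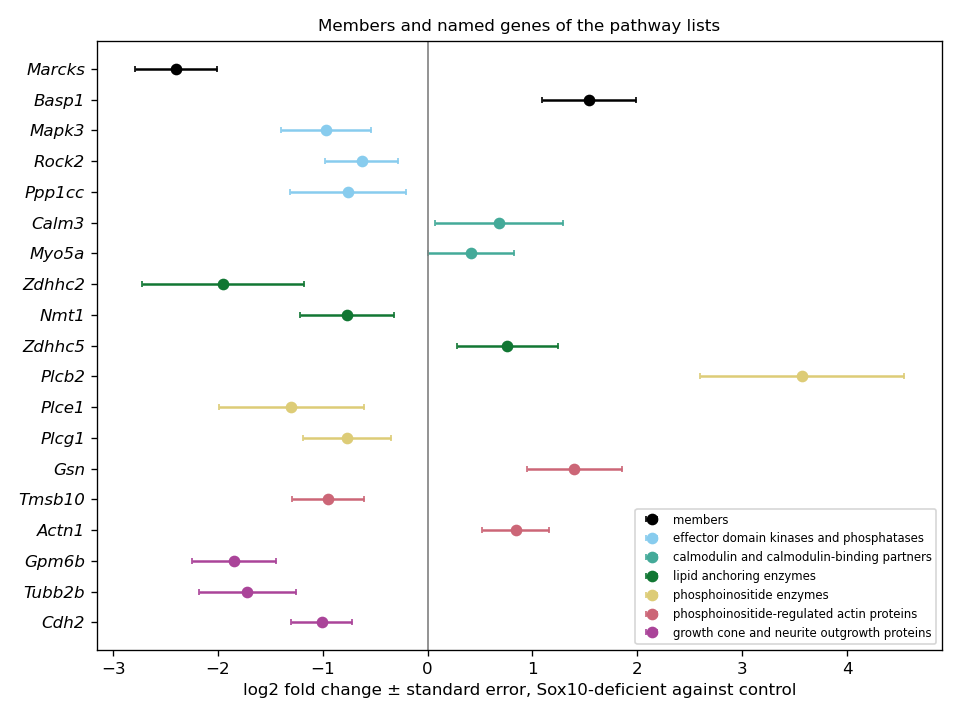
Log2 fold change of Sox10-deficient against control cells (horizontal axis) for the 2 tested members and the named genes of the 6 pathway lists (vertical axis, coloured by list). Points are fitted values and bars their standard errors. Marcks stands at -2.40 and Basp1 at 1.54, and of the named list genes plotted Plcb2 alone lies outside these values.

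Marker genes show which cells the libraries represent. The oligodendroglial genes Pdgfra, Cspg4, Cnp, Nkx2-2, Myrf and Mog had at least 6 counts in every library, whereas Mag was at 0 and the myelin gene Mbp had at most 2 counts in any library. Olig1 (12 and 1 counts) and Olig2 (7 and 0 counts) were seen in controls only, in control 1 for the most part. The 13 oligodendroglial markers summed to 3083 and 2769 CPM in controls, to 1943 CPM in clone A and to 1769 CPM in clone B. Of 13 neuronal markers 7 were at 0 throughout, among them Rbfox3, Syt1 and Nefl, and the summed level was 691 and 716 CPM in the controls, 301 CPM in clone A and 34.0 CPM in clone B. Except in clone B nearly all of it was Nefm, with 41 and 69 counts against 25 and 1. Of 8 astrocyte markers 4 were at 0, Aqp4 and Slc1a2 among them. The sums of 450 and 271 CPM in controls stood against 34.7 and 90.7 CPM in clones A and B. Most of the control sums came from S100b, the only tested gene of this list, with 26 and 22 counts against 2 and 1. Gja1 went the other way, with 0 counts in both controls against 1 in clone A and 4 in clone B. Of 8 markers of Schwann cells and neural crest, 7 were listed and 2 were at 0 (Pou3f1 and Cdh19), and the sums were 1317 and 1239 against 289 and 113 CPM. The summed levels of these 4 lists were lower in both clones, as Marcks was, but much of each fall came from few genes. In the Schwann cell and neural crest list these were Ngfr (37 and 62 counts in controls) and Erbb3 (15 and 13), both at 0 in each clone. In the oligodendroglial list they were Sox10 and Cnp, the latter with 62 and 68 counts against 35 and 20. The part of these 4 lists in the Marcks level was not tested. The oligodendroglial sum includes Sox10 itself, and single markers differed from it, since Cspg4 had a log2 fold change of 0.93 and Pdgfra one of 0.22. The sum of 8 fibroblast and mesenchymal markers, with Col1a2 and Thy1 at 0, was 6151 and 7028 CPM in the controls and 8372 and 9219 CPM in the clones. This sum was higher in the clones, as Basp1 was, through Fn1 alone among the 3 tested markers (log2 fold change 0.91), whereas Vim and Col1a1 had values of -0.77 and -0.65. The part of these genes in the Basp1 level was not tested. Of 8 microglia and macrophage markers 5 were at 0, none could be tested, and the sums lay between 79.4 and 203 CPM without a gap between groups.

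**Figure D4:**
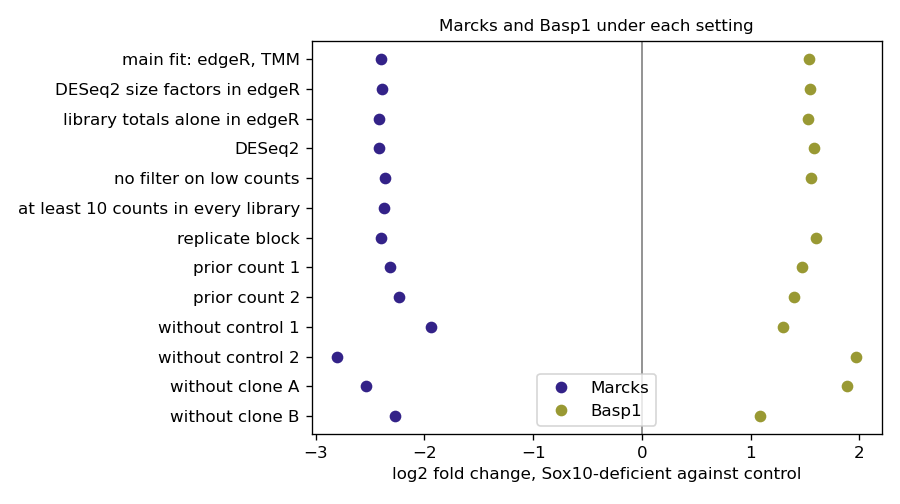
Log2 fold change of Sox10-deficient against control cells (horizontal axis) for Marcks and Basp1 under each setting of the analysis (vertical axis). Points are fitted values. Marcks ran from -2.80 to -1.94 and Basp1 from 1.09 to 1.97, and both ranges were set by leaving out single libraries.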

How the data were processed

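RNA from 2 control and 2 Sox10-deficient OLN93 samples was sequenced by the authors as stranded mRNA libraries, mapped to the rat genome rn5 with STAR 2.5.1 and counted with HTSeq. The authors deposited raw counts per gene symbol for each library, with no summary rows. Their table per Ensembl gene holds a deposited mean of normalized counts rounded to whole numbers, treated here as a score and printed as the authors' mean. It also holds their own fold changes, errors and p-values, which were not used. The deposited totals lie between 60951 and 104017 counts per library, so that a count of 3 was taken as the floor.

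The test used edgeR 4.0.16 under R 4.3.3, with its filterByExpr and TMM defaults, glmQLFit and glmQLFTest and a prior count of 0.125. The model held the condition alone. Standard errors came from the F statistic. The fit was also run on simulated counts with 200 altered genes. These were drawn with the spread that the fit itself had estimated, so this run says nothing about the spread between clones. Python 3.11.15 and scipy 1.17.1 gave the intervals. Named genes are the members, Sox10, called genes and the 3 with the smallest p in each pathway list, and the 5 with the closest profile to each member. Profiles were log2 CPM after adding 0.5 counts. The marker genes and the details of them were named after their values were seen. Single genes of these lists that are not reported here stay in the counts and sums. The members and lists were chosen with earlier results of these data known. Alternatives were DESeq2 1.42.0, its size factors or library totals in edgeR, no filter or at least 10 counts in every library, prior counts of 1 and 2, the replicate number in the model, and leaving out each library.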

Additional observations from a re-analysis of the deposited data

How the results depend on the processing

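Marcks kept its negative and Basp1 its positive log2 fold change in every alternative that gave a value. For Marcks it ran from -2.42 to -2.23 in fits of all libraries and from -2.80 to -1.94 when single libraries were left out, and for Basp1 from 1.40 to 1.60 and from 1.09 to 1.97. A minimum of 10 counts per library removed Basp1 from the test.

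The numbers of called genes over all genes moved more. Against 61 lower and 27 higher genes, DESeq2 gave 28 and 8, and the minimum of 10 counts gave 23 lower genes. No filter gave 44 higher genes. Leaving out single libraries gave 30 to 68 lower and 9 to 42 higher genes. Of the pathway genes, 2 were lower and 1 higher. The lower ones came to 3 with library totals alone. They came to 1 with DESeq2 size factors, without the filter and with the minimum of 10 counts, and to 0 with DESeq2. The higher ones stayed at 1 with library totals alone and without the filter, and came to 0 with DESeq2 size factors, the minimum of 10 counts and DESeq2. Both numbers also moved when any single library was left out. With the replicate number as a block, a fit made because the descriptions number the libraries alike, 28 genes were lower and 11 higher, with 1 and 0 among the pathway genes. In this fit Gpm6b was still called (adjusted p from edgeR 0.044), and the calls of Tubb2b (0.128) and Plcb2 (0.137) were lost. Deviations of libraries with the same number had a correlation of 0.124 across genes over only 2 pairs, so that the numbers were not taken to pair the libraries. A group left with 1 library was assumed to vary like the other group. The cause of these shifts was not tested, except that a minimum in every library tests fewer genes. With about 22 counts per library for Basp1, depth limits the precision of its value more than that of Marcks.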
